A study of Mus musculus with 56 samples.

Results

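The genes described here are 10 nuclear receptors that read the chemical and metabolic state of a cell: Nr1i2 (PXR), Nr1i3 (CAR), Nr1h4 (FXR), Nr0b2 (SHP), Nr5a2 (LRH-1), Hnf4a, Ppara, Nr1h3 (LXR alpha), Rxra and Esrra. They were chosen by gene symbol. The RefSeq accession printed for each array spot was matched to a symbol, which gave 16 of the 55681 probes for these 10 genes, out of 20018 genes that could be named on the array. Where a gene had several probes, the probe brightest in Cy5 on average was taken in each tissue, and for a comparison between tissues the same probe was kept in all 3 of them.

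Adult male Muta™Mouse of about 14 weeks, a transgenic strain whose cells carry a bacterial reporter gene for counting mutations, received chrysene in olive oil by gavage every day for 28 days, at 17.5 (D1), 50 (D2) or 150 (D3) mg/kg-bw/day. Vehicle controls (D0) received the oil alone, and lung, liver and forestomach were taken 72 h after the last gavage. Chrysene is a polycyclic aromatic hydrocarbon of combustion products. Lung was measured in 5 D0, 5 D1, 3 D2 and 5 D3 mice, and liver and forestomach each in 5 D0, 5 D1, 4 D2 and 5 D3 mice, so that 56 arrays covered 19 mice. Each array held the RNA of 1 mouse and tissue in Cy5 and the same reference RNA, pooled from mouse cell lines, in Cy3, with no dye swap. All levels below are therefore log2 ratios of sample to reference: a value of 0 means a spot as bright in the tissue as in the reference, and levels of different genes cannot be ranked against each other. RNA came from a random slice of each organ, so the cell types in a slice could vary between mice.

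Nuclear receptors are transcription factors, most of which bind a small fat-soluble molecule. PXR and CAR sense foreign compounds and, in liver and intestine, switch on cytochrome P450 enzymes, conjugating enzymes and transporters. FXR senses bile acids, and through SHP, a receptor that has no DNA-binding domain and acts as a repressor, it lowers bile acid synthesis, which LRH-1 and HNF4 alpha otherwise favour. PPAR alpha responds to fatty acids and drives their oxidation, LXR alpha responds to oxysterols and drives cholesterol export and fat synthesis, RXR alpha is the partner with which PXR, CAR, FXR, LXR and PPAR alpha bind DNA, and ERR alpha, which has no established natural ligand, drives genes of mitochondrial respiration. All 10 are known to be made in liver, where the xenobiotic and bile acid receptors are best studied.

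The start-site windows of 5 of these genes are shown because they are the receptors with the clearest tissue pattern or the widest spread described below. All 10 genes matched the RefSeq promoter table (build GRCm38.p6), with 14 windows in all, each of 300 bases that span an annotated start. Capitals mark the motifs that were searched on both strands: AGGTCA, the half-site that many nuclear receptors bind; GTTAAT, a half-site of the liver and gut factor HNF1; and CACGTG, an E-box, the site of the clock factors and other helix-loop-helix proteins. Hnf4a has 2 starts, of which the upstream one is known as P2 and the downstream one as P1, and both are given.
Hnf4a upstream start, plus strand, chr2:163506607-163506906: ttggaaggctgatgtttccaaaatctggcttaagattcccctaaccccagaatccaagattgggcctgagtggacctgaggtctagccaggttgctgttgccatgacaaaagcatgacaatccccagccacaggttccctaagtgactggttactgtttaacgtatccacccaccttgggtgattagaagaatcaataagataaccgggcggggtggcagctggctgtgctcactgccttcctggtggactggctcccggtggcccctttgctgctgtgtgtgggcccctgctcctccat
Hnf4a downstream start, plus strand, chr2:163546905-163547204: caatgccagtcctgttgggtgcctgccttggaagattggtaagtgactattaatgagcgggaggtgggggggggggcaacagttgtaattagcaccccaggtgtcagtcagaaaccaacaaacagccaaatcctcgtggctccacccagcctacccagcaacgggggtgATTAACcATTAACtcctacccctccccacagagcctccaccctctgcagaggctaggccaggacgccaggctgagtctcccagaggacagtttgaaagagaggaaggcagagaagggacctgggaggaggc
Nr1h4, minus strand, chr10:89506609-89506908: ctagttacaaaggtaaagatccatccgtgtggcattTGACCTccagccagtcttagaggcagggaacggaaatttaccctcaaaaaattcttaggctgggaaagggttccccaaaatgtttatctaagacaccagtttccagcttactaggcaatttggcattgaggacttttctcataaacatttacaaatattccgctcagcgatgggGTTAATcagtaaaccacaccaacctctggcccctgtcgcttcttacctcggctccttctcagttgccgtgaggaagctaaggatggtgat
Nr5a2, first of 2 starts, minus strand, chr1:136960399-136960698: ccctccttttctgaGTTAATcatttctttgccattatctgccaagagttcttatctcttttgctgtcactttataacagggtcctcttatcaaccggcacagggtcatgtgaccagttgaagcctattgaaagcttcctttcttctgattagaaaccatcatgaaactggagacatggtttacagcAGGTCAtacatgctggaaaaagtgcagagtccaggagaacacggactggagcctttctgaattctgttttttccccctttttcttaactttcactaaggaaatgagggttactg
Nr0b2, plus strand, chr4:133553126-133553425: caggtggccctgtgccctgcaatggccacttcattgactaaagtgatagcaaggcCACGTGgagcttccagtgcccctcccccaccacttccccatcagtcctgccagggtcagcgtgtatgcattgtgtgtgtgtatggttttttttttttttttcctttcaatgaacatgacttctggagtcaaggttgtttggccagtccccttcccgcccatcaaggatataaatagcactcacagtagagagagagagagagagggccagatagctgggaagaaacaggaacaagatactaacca
Nr1i3, plus strand, chr1:171213720-171214019: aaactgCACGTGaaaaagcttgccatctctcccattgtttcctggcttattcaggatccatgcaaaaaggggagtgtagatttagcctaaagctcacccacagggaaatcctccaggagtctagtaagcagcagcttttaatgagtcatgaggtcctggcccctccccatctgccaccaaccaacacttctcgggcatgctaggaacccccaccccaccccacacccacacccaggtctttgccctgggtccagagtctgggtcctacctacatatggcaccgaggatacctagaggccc
AGGTCA or its complement was in 3 of the 14 windows (Nr1h4 at -214, Nr5a2 at -64 and the second window of Rxra at -87 and -48 from the start), beside 16.3% of the 32851 promoters in the table. GTTAAT was also in 3 of the 14, with 1 match in Nr1h4 at -40, 1 in Nr5a2 at -236 and 2 in the downstream window of Hnf4a at -81 and -74, beside 7.1% of all promoters. CACGTG was in 2 (Nr1i3 at -244 and Nr0b2 at -195), beside 7.15%. The longer half-site CAAGGTCA and the D-box TTATGNAA, where N is any base, were in 0 of the 14, beside 1.56% and 3.38%. These motifs do not overlap each other in the windows printed, and a match of letters is a description of the sequence only.

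The arrays were not equally bright. A median of 53.7% of spots were well above background in lung (range 49 to 56.7%), 40% in liver (34.5 to 46.4%) and 33.5% in forestomach (18.9 to 51.7%). Each of the 9 slides held arrays of 1 tissue, so tissue and slide cannot be told apart, and within a slide the array position mostly followed the dose. Each tissue had the markers of its label, but forestomach also held others. The mean log2 ratio of 8 hepatocyte markers was 6.46 to 7.03 in liver and 0.45 to 1.22 in lung, that of 7 alveolar and airway markers 5.85 to 6.46 in lung and -0.38 to -0.17 in liver, and that of 8 keratinocyte markers 2.78 to 5 in forestomach. In forestomach the hepatocyte markers ran from 0 to 3.15, with 0 to 8 of the 8 well above background, and the fat markers from 0.71 to 4.79. Libraries that stood apart by other markers were the lungs of mice 17 and 19 (D3), with muscle, keratinocyte and fat markers, and the forestomachs of 10 mice, with glandular stomach markers. Their values stand beside the results they touch.

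The first question was where these receptors are expressed without chrysene. In the D0 mice 9 of the 10 receptors were higher in liver than in lung, by fitted differences of 1.35 to 6.36 on the log2 scale (limma, with an FDR P of at most 0.05 and a change of at least 1.5-fold), and 9 of 10 were higher in liver than in forestomach, by 1.33 to 5.34. Esrra was the exception in both: it did not pass between liver and lung and was lower in liver than in forestomach. For all probes tested the same limits called 45.6% between liver and lung (20.9% higher and 24.7% lower in liver) and 40.1% between liver and forestomach (18.7% higher and 21.4% lower in liver). Nr0b2 and the Nr1i3 probe compared were well above background on 0 of 18 lung arrays, so for liver against lung they were tested only because they were bright in liver, and their place in the count follows in part from that filter. The same holds for the Nr1i3 probe between liver and forestomach, as it was well above background on 0 of 19 forestomach arrays. Fewer cells of a type and less RNA per cell cannot be told apart in such whole-tissue RNA. The plot of levels on all arrays shows the split.

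**Figure D1:**
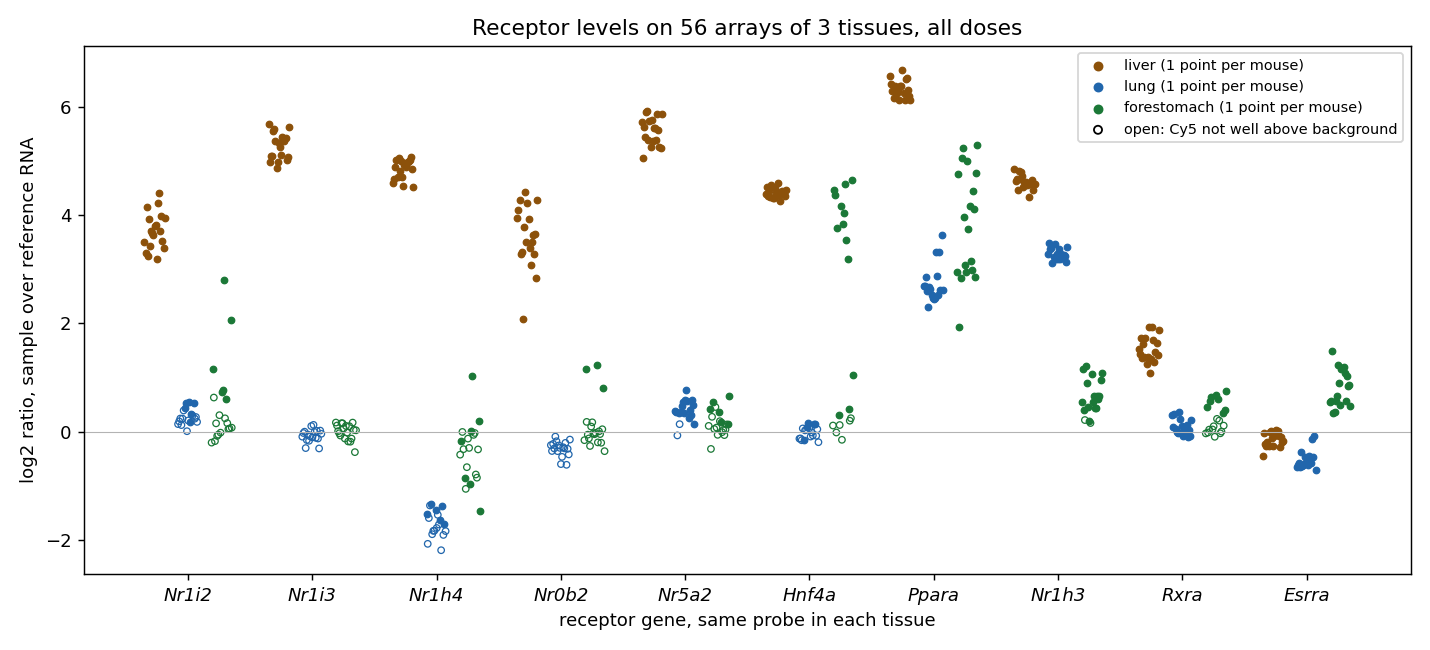
Log2 ratio of sample to reference RNA (vertical axis) for each of the 10 receptors (horizontal axis) on every array, 1 point per mouse, in liver, lung and forestomach and over all doses; open points are spots not well above background and the sideways scatter has no meaning. Liver points lie above all lung points for 9 receptors, and the forestomach points of Hnf4a fall into an upper band of 3.18 to 4.64 and a lower band of -0.15 to 1.05.

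The 2 xenobiotic receptors were close to background outside liver. Nr1i2 was at 3.25, 3.30, 3.50, 3.92 and 4.16 in the 5 D0 livers, at 0.12, 0.14, 0.19, 0.24 and 0.24 in the lungs, and at -0.21, -0.18, 0.15, 0.63 and 1.15 in the forestomachs. No lung spot among these was well above background, so liver was at least 7.93-fold higher than lung (limma adjusted p = 3.11e-09), and the fitted difference from forestomach, where 1 of 5 D0 spots was well above background, was 3.32 (SE 0.24, adjusted p = 8.67e-09). The order of lung and forestomach was not resolved for Nr1i2, with a difference of -0.12 (95% interval -0.63 to 0.38). Nr1i3 was at 4.99, 5.08, 5.09, 5.55 and 5.68 in D0 liver, and the same probe read -0.31 to 0 in D0 lung and -0.07 to 0.17 in D0 forestomach. That probe was well above background on 0 of the 18 lung and 0 of the 19 forestomach arrays, against 19 of 19 in liver, which bounds the difference at no less than 33.9-fold over lung and 32.4-fold over forestomach. The bounds come from setting each dim array at the lowest signal that was well above background there, or at the spot's own signal where that was higher. A second Nr1i3 probe was also called higher in liver than in both other tissues. Its fitted difference from lung was smaller, at 3.6 (12.1-fold), with 2 of the 5 D0 lung spots well above background, and it was well above background on 0 of 19 forestomach arrays.

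The bile acid receptors followed. Nr1h4 was at 4.6, 4.66, 4.71, 4.9 and 5.02 in D0 liver, at -2.08, -1.6, -1.53, -1.37 and -1.34 in lung and at -0.85, -0.43, -0.33, -0.18 and -0.01 in forestomach. The 3 tissues do not overlap: liver exceeded lung by 6.36 (SE 0.16, adjusted p = 1.5e-14), and forestomach exceeded lung by 1.22 (SE 0.16, adjusted p = 1.46e-05). Nr1h4 was well above background on only 2 of the 5 D0 arrays of lung and 2 of the 5 of forestomach (6 of 18 and 7 of 19 over all doses), so its low levels rest on dim spots and the size of these gaps is uncertain. Nr0b2 was at 3.28, 3.31, 3.95, 4.09 and 4.27 in D0 liver and -0.36 to -0.09 in D0 lung, with no lung spot well above background, which makes liver at least 12-fold higher. In D0 forestomach Nr0b2 read -0.16, -0.13, -0.06 and 0.18 in 4 mice and 1.15 in mouse 2, and the fitted liver excess was 3.59 (SE 0.24, adjusted p = 4.7e-09), against spots of which 1 of 5 was well above background. Nr5a2 was at 5.06, 5.44, 5.62, 5.72 and 5.91 in D0 liver, -0.07 to 0.37 in lung and -0.32 to 0.55 in forestomach, a fitted liver excess of 5.32 (SE 0.17) over lung and 5.34 (SE 0.18) over forestomach. Only 3 of these 5 lung spots and 2 of these 5 forestomach spots were well above background. Lung and forestomach overlapped for Nr5a2, and their difference of 0.03 has a 95% interval of -0.35 to 0.4. A second, dimmer Nr5a2 probe gave smaller excesses of 1.31 and 1.18, both called.

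Hnf4a, a master regulator of hepatocyte genes that is also known from the gut epithelium, was even in liver and uneven in forestomach. It was at 4.33, 4.35, 4.39, 4.45 and 4.52 in D0 liver and at -0.16, -0.15, -0.13, -0.13 and 0.06 in D0 lung, a fitted difference of 4.51 (SE 0.74, adjusted p = 6.71e-05), although only 1 of the 5 lung spots was well above background. The fit pooled the spread of all 3 tissues, so this SE reflects forestomach (SD 2.29) more than liver (0.08) or lung (0.09). In D0 forestomach mice 4 and 1 read -0.02 and 0.11, while mice 5, 3 and 2 read 3.75, 4.37 and 4.46, of which mice 3 and 2 lay within the range of the D0 livers. The Hnf4a probe had a mean Cy5 signal of 22780 over all livers and 1160 over all forestomachs. A like ratio therefore need not mean a like amount of RNA. The liver excess over forestomach was 1.87 (SE 0.75, adjusted p = 0.0427), and the forestomach excess over lung was 2.64 (SE 0.75, adjusted p = 0.00745). The call between liver and forestomach was lost when mouse 1, 4 or 5 was left out (1.27, 1.22 and 2.2, with adjusted p = 0.184, 0.179 and 0.0552). Without the forestomach arrays of mice 2, 3 and 5, whose glandular stomach markers were high and whose hepatocyte markers (3.15, 2.02 and 1.87) exceeded those of mice 1 and 4 (0.04 and 0.4), the liver excess was 4.36 and the lung level differed by only -0.15 (adjusted p = 0.217).

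Among the receptors of lipid metabolism, Ppara was at 6.17, 6.29, 6.39, 6.42 and 6.56 in D0 liver, 2.3, 2.59, 2.68, 2.7 and 2.86 in lung and 1.93, 2.84, 2.95, 4.76 and 5.06 in forestomach. Liver lay above both other tissues in each D0 mouse, by 3.74 (SE 0.45) over lung and 2.86 (SE 0.45) over forestomach. Lung and forestomach overlapped and were not called different for Ppara (-0.88, 95% interval -1.84 to 0.07, adjusted p = 0.107), although leaving out mouse 3 brought the call (-1.33, adjusted p = 0.0214), and 1 of its 2 other probes passed (-0.98, adjusted p = 0.0207). Nr1h3 had a clear level in lung as well as liver. It stood at 4.46 to 4.85 in D0 liver, 3.12 to 3.49 in lung and 0.21 to 1.21 in forestomach. These ranges do not overlap, and the steps were 1.35 (SE 0.17, adjusted p = 4.51e-06) from lung to liver and 2.63 (SE 0.17, adjusted p = 6.22e-09) from forestomach to lung. The second Nr1h3 probe gave 1.45 and 2.88.

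Rxra, the common partner, was also higher in liver. It was at 1.37, 1.44, 1.53, 1.62 and 1.73 in D0 liver, at 0, 0.05, 0.08, 0.30 and 0.33 in lung and at -0.03, -0.02, 0.04, 0.45 and 0.57 in forestomach. The liver excess was 1.38 (SE 0.13, adjusted p = 1.39e-07) over lung and 1.33 (SE 0.13, adjusted p = 3.67e-07) over forestomach, where 2 of the 5 D0 spots were well above background. Lung and forestomach were not called different with this probe (-0.05, 95% interval -0.33 to 0.23), nor with the other one, whose difference of -0.49 had an adjusted p of 0.000969 but missed the fold limit.

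Esrra ran the other way. It was at -0.46, -0.27, -0.24, -0.2 and -0.03 in D0 liver, at -0.66, -0.65, -0.62, -0.58 and -0.38 in lung and at 0.33, 0.36, 0.55, 0.57 and 1.5 in forestomach. Every D0 forestomach exceeded every D0 liver and lung, by 0.9 (SE 0.18, adjusted p = 0.000507) and 1.24 (SE 0.18, adjusted p = 2.95e-05), and over all doses Esrra was higher in forestomach than in liver in each of the 19 mice. The liver and lung levels were close (0.34, 95% interval -0.04 to 0.72, adjusted p = 0.107). This direction hung on the scaling: with each array centred on its median in place of the authors' loess normalization, which also moved the median of all probes by -0.62 for liver against lung, 0.17 for liver against forestomach and 0.95 for lung against forestomach, the Esrra differences were -0.58, 0.50 and 1.08, none of them called (adjusted p = 0.491, 0.637 and 0.175).

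Between lung and forestomach 4 of the 9 receptors tested were called, beside 36.8% of all probes (19.1% higher and 17.8% lower in lung): Nr1h3 was higher in lung, and Hnf4a, Nr1h4 and Esrra were higher in forestomach. The order for Nr1h4 rests on dim spots, with 2 of 5 D0 spots well above background in each tissue, and its size is uncertain. With the D1, D2 or D3 mice in place of the D0 mice the number of receptors called was 9 in each group for liver against lung, 10, 9 and 10 for liver against forestomach and 4 in each group for lung against forestomach. The 4 were not the same receptors throughout: in the D1 and D3 mice Hnf4a was not called between lung and forestomach (adjusted p = 0.0571 and 0.0868) and Ppara was (-1.5 and -1.35). Over all mice with both tissues, liver exceeded lung in 18 of 18 for 9 receptors and in 16 of 18 for Esrra. With median centring the calls of Nr1h3 (0.05) and Rxra (0.44) between liver and lung, of Nr1h4 (-0.27) and Esrra between lung and forestomach and of Hnf4a (1.49) and Esrra between liver and forestomach were lost.

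The second question was whether chrysene changed the receptors themselves. No receptor passed the limits: 0 of 9 receptors tested in lung, 0 of 10 in liver and 0 of 9 in forestomach were called at D1, D2 or D3, or in a linear trend over the dose steps (limma). The share of all probes called was as low, at 0%, 0% and 0.127% in lung for D1, D2 and D3, 0%, 0% and 0% in liver and 0%, 0% and 0.00728% in forestomach, with 0.169%, 0% and 0.04% for the trend. Nr0b2 in lung and Nr1i3 in forestomach were too dim to be tested. At an unadjusted p of at most 0.05, 4 single values stood out of all receptors and doses, none of them at D3: Hnf4a at D1 and Nr5a2 at D2 in lung, and Esrra at D2 in liver and in forestomach. Among all probes, 3.61 to 16.2% had such a p in the 9 dose comparisons. For no receptor and dose did the dosed mice all lie above or all lie below the D0 mice.

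**Figure D2:**
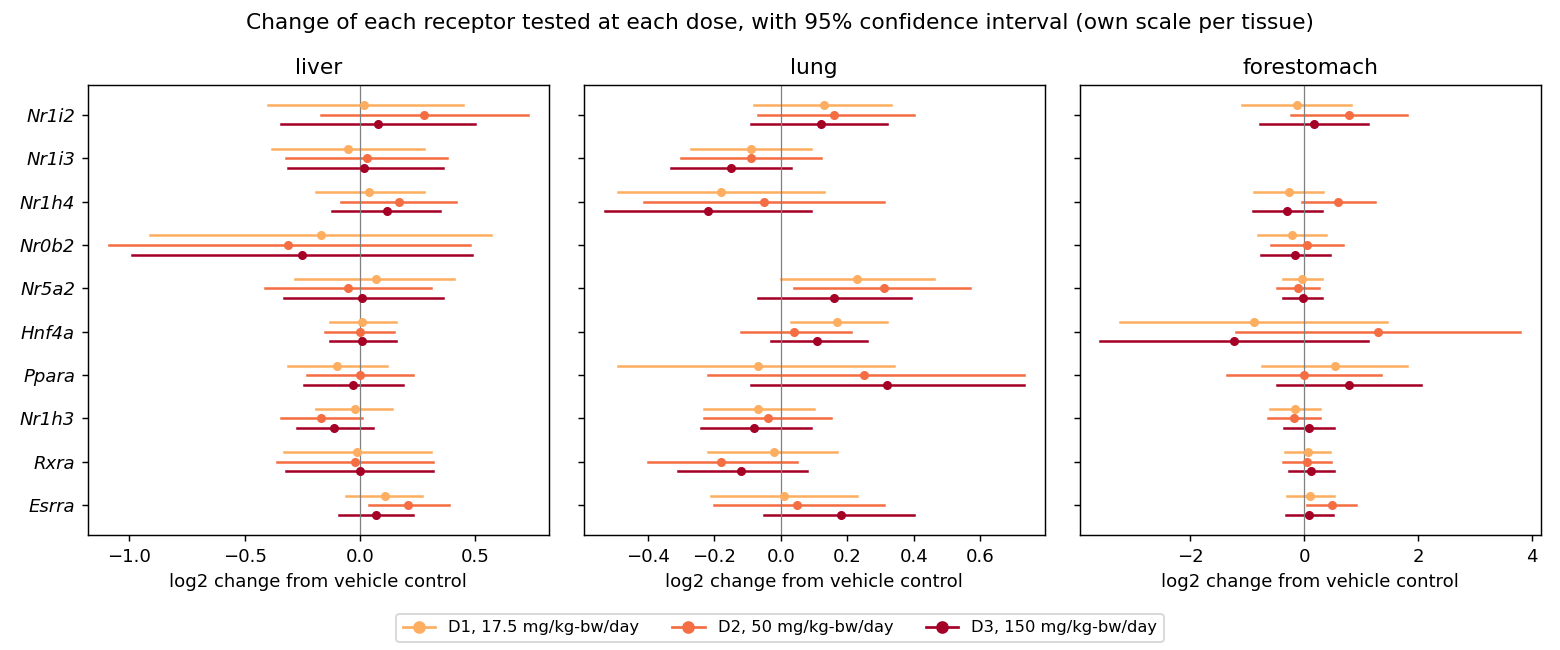
Log2 change from vehicle control (horizontal axis, own scale in each panel) of each receptor tested, at D1, D2 and D3 in liver, lung and forestomach, with the 95% interval of the limma fit as the bar. The liver intervals of Hnf4a stay within 0.16 of 0, whereas that of Hnf4a in forestomach at D3 runs from -3.57 to 1.12.

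In liver the intervals bounded any change closely for most receptors. At D3 the largest differences were -0.25 for Nr0b2 (SE 0.35, 95% interval -0.99 to 0.49), 0.12 for Nr1h4 (SE 0.11, -0.12 to 0.35) and -0.11 for Nr1h3 (SE 0.08, -0.27 to 0.06), each with an adjusted p of 1. Hnf4a moved by 0.01 (SE 0.07, -0.13 to 0.16) and Nr1i3, whose protein drives the Cyp2b genes, by 0.02 (SE 0.16, -0.31 to 0.36). Nr1i2 differed by 0.08 (SE 0.2, -0.34 to 0.5) and Ppara by -0.03 (SE 0.1, -0.24 to 0.19). Esrra at D2 was at -0.08, -0.05, 0 and 0.03, all above the D0 mean but overlapping the D0 mice, a difference of 0.21 (SE 0.08, unadjusted p = 0.0174, adjusted p = 0.998 with limma).

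The livers of mice on the same dose differed from each other far more in some receptors than in others. Nr0b2 had a residual SD of 0.621 within dose groups, at the 99th percentile of the probes tested in liver, whose median SD was 0.156. It was at 3.28, 3.31, 3.95, 4.09 and 4.27 at D0, at 2.08, 3.51, 3.79, 4.23 and 4.43 at D1, at 3.08, 3.39, 3.51 and 3.93 at D2, and at 2.83, 3.28, 3.63, 3.66 and 4.28 at D3. The lowest liver, 2.08 in mouse 6, and the highest, 4.43 in mouse 8, were both given the D1 dose, and the D3 livers covered the D0 range and reached below it. Nr1i2 came next with an SD of 0.351 (percentile 94.4), from 3.19 in mouse 12 to 4.4 in mouse 15, both D2. At the other end, Hnf4a had an SD of 0.0966 (percentile 10.8) and kept between 4.25 and 4.59 in all 19 livers, followed by Esrra (0.116, percentile 21.9) and Nr1h3 (0.118, percentile 23.1). The Hnf4a probe was also the brightest of the receptors' probes in liver (mean Cy5 signal 22780). The part of signal strength in its small spread was not tested. Rxra differed by slide, at 1.09 to 1.47 on liver slide 1, 1.25 to 1.73 on slide 2 and 1.53 to 1.93 on slide 3.

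**Figure D3:**
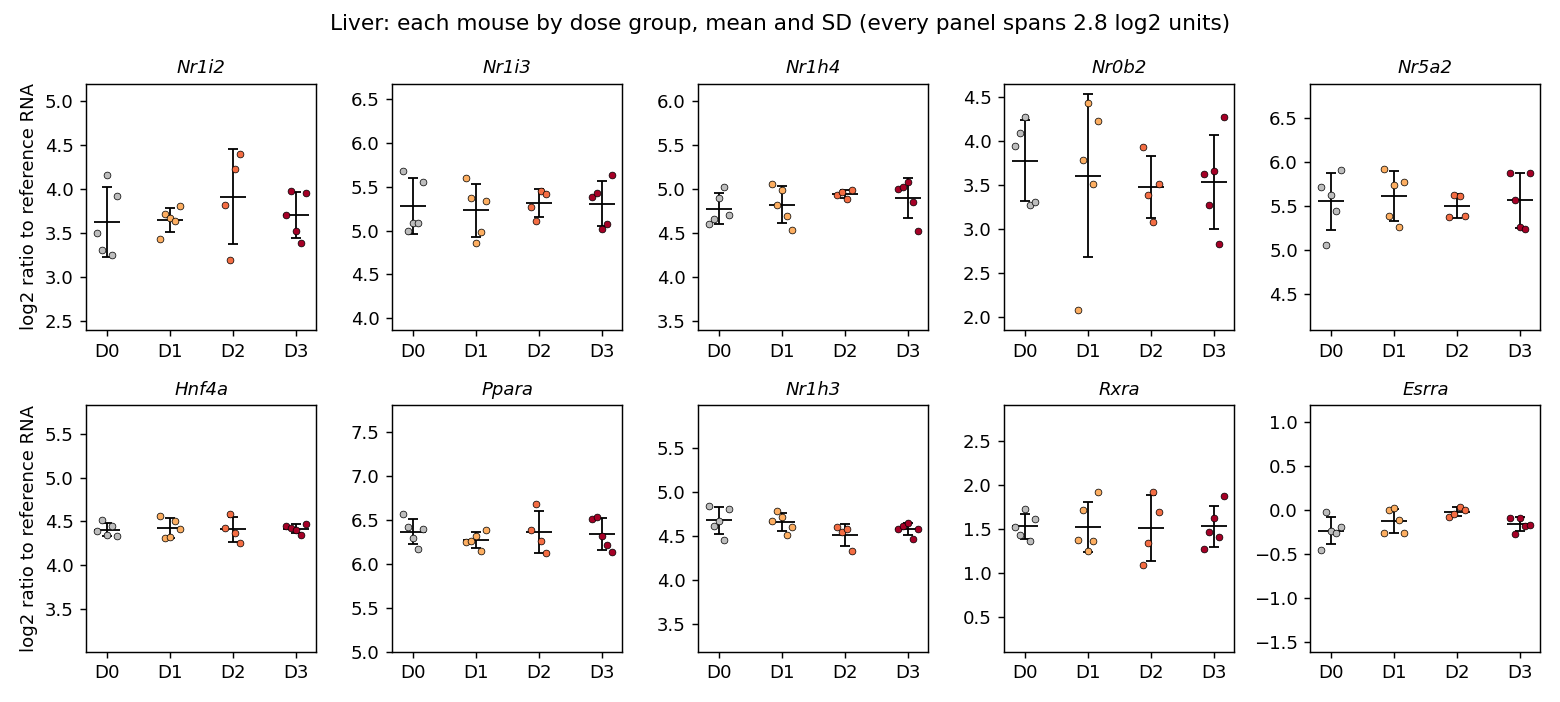
Log2 ratio to reference RNA in liver (vertical axis, each panel spanning the same number of log2 units) of the 10 receptors by dose group, 1 point per mouse, with the group mean and SD as lines. Hnf4a points form a tight band from 4.25 to 4.59 at all doses, and Nr0b2 points scatter from 2.08 to 4.43.

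In lung the largest D3 differences were 0.32 for Ppara (SE 0.2, 95% interval -0.09 to 0.73, adjusted p = 0.443), -0.22 for Nr1h4 (SE 0.15, -0.53 to 0.09, adjusted p = 0.475) and 0.18 for Esrra (SE 0.1, -0.05 to 0.4, adjusted p = 0.425). Ppara was at 2.3, 2.59, 2.68, 2.7 and 2.86 in D0 lung and at 2.52, 2.61, 2.62, 3.32 and 3.64 in D3 lung. The last pair of D3 values came from mice 17 and 19, and the other 3 lay within the D0 range. Esrra was at -0.72, -0.59 and -0.48 in mice 20, 16 and 18 and at -0.14 and -0.09 in mice 17 and 19, the highest of all 18 lungs.

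In those lungs of mice 17 and 19 the mean of 8 skeletal muscle markers was 5.61 and 5.84, against -1.13 to -0.2 in the other 16, with all 8 markers well above background; the keratinocyte markers averaged 3.55 and 3.95 and the fat markers 4.16 and 4.12. Without these lungs the D3 difference was -0.04 (SE 0.15) for Ppara and -0.02 (SE 0.08) for Esrra, and with the muscle markers as a covariate it was -0.05 and -0.02. Nr1h4 went to -0.4 (SE 0.15, unadjusted p = 0.0146, adjusted p = 0.401) without them, although its lung spots were mostly dim. The next highest Ppara among the lungs, 3.31 in mouse 13 (D2), was in the lung with the next highest fat markers (3.92), and the part of these cell types in the Ppara level was not tested further.

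At the lower doses in lung, Hnf4a at D1 was 0.02, 0.03, 0.06, 0.08 and 0.15, against -0.16 to 0.06 at D0 (0.17, SE 0.07, unadjusted p = 0.0227, adjusted p = 0.832), and was well above background on 5 of 18 lung arrays in all. Nr5a2 at D2 was 0.26, 0.57 and 0.77, against -0.07 to 0.37 at D0 (0.31, SE 0.13, unadjusted p = 0.0273, adjusted p = 0.763), on spots well above background on 16 of 18 lung arrays. Both overlapped the controls.

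In forestomach the spread between mice was wide enough to hide moderate changes. The largest D3 differences were -1.22 for Hnf4a (SE 1.11, 95% interval -3.57 to 1.12, adjusted p = 0.815), 0.79 for Ppara (SE 0.6, -0.48 to 2.06, adjusted p = 0.767) and -0.29 for Nr1h4 (SE 0.29, -0.89 to 0.31, adjusted p = 0.839). Within dose groups the SD of Hnf4a was 1.91 and that of Ppara 1.03, at percentiles 99.6 and 96.7 of the probes tested there. Esrra at D2 was 1.07, 1.16, 1.17 and 1.19, above 4 of the 5 D0 mice and below mouse 3 (1.5), a difference of 0.49 (SE 0.21, unadjusted p = 0.0302, adjusted p = 0.607). All 4 of these D2 forestomachs had high glandular stomach markers (5.01 to 6.62), against 3 of 5 at D0, and with those markers as a covariate the Esrra difference was 0.41 (SE 0.21, unadjusted p = 0.0622, adjusted p = 0.806).

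Hnf4a in forestomach was either high or near the reference. It was at -0.02, 0.11, 3.75, 4.37 and 4.46 at D0, at -0.15, 0.12, 0.31, 3.83 and 4.16 at D1, at 3.18, 3.53, 4.04 and 4.58 at D2, and at 0.2, 0.25, 0.42, 1.05 and 4.64 at D3. Of the 19 forestomachs 10 held 3.18 to 4.64 and the other 9 held -0.15 to 1.05, with both kinds present at D0, D1 and D3. The same 10 arrays had a mean of 5.01 to 6.7 over 9 markers of the glandular stomach, the acid and mucus secreting part that adjoins the forestomach, with all 9 markers well above background, whereas the other 9 arrays had 0.3 to 2.34 with 2 to 7 markers above background. Hnf4a is not among these markers. The hepatocyte markers were at 1.1 to 3.15 on the 10 arrays and 0 to 3.12 on the other 9, where mouse 20 had 3.12 with Hnf4a at 1.05, and their part in the Hnf4a level was not tested. With the glandular markers as a covariate the D3 difference of Hnf4a was -0.18 (SE 0.27, adjusted p = 0.778).

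Nr1i2, Nr0b2 and Nr1h4 had their highest forestomach levels in a few of the same mice. Nr1i2 reached 2.8 in mouse 12 (D2), 2.06 in mouse 19 (D3) and 1.15 in mouse 2 (D0), and lay between -0.21 and 0.77 in the other 16. Nr0b2 reached 1.22, 0.8 and 1.15 in those same mice and lay between -0.36 and 0.18 in the rest, and Nr1h4 reached 1.03 in mouse 12 and 0.2 in mouse 19 and stayed at or below 0.02 elsewhere. Mice 12, 19 and 2 had the highest glandular stomach markers (6.62, 6.7 and 6.53) and also the highest pancreatic acinar markers (1.84, 4.77 and 1.55, against -0.1 to 1.3 in the rest), with 6 to 8 of the 8 acinar markers well above background. Their hepatocyte markers averaged 2.27, 3.14 and 3.15, with 8 of 8 well above background, against 0 to 3.12 in the other 16. Nr5a2 did not share this order, with its highest forestomach level of 0.66 in mouse 20. With the glandular markers as a covariate the D3 difference of Nr1i2 was 0.48 (SE 0.33, adjusted p = 0.542) in place of 0.17 (SE 0.45, adjusted p = 0.953); the part of pancreatic or hepatocyte RNA was not tested.

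**Figure D4:**
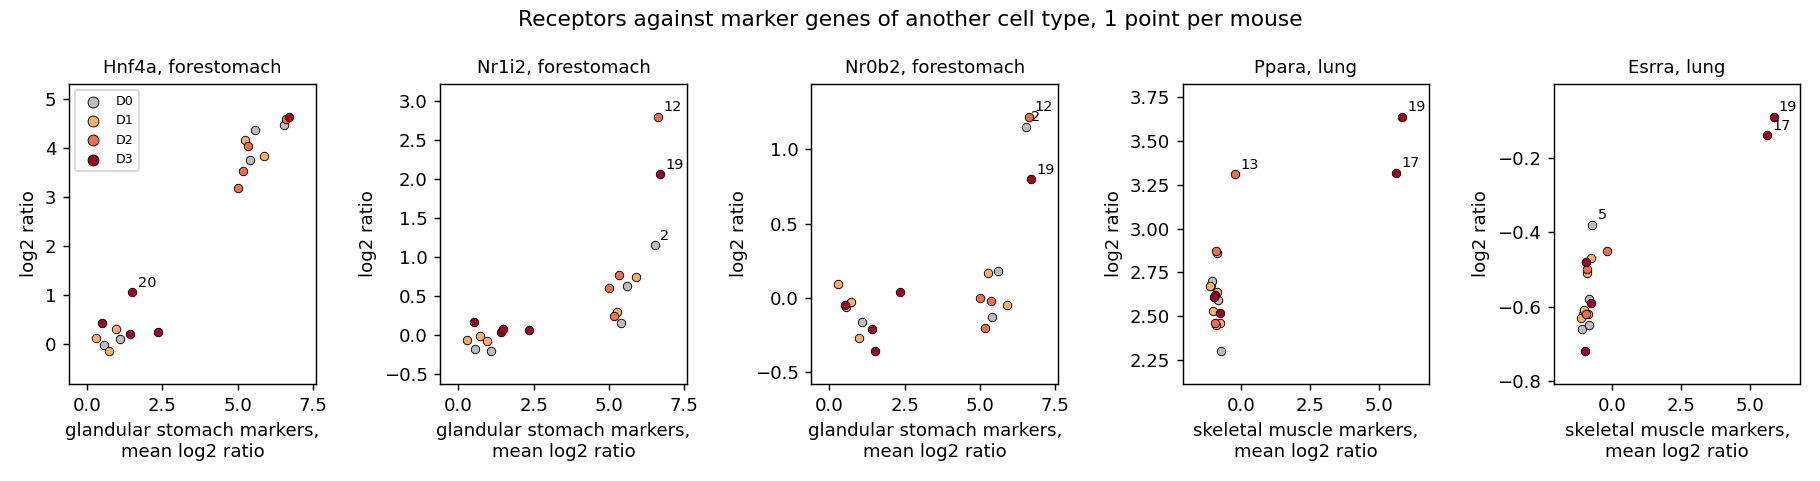
Log2 ratio of a receptor (vertical axis) against the mean log2 ratio of marker genes of another cell type (horizontal axis), 1 point per mouse coloured by dose: Hnf4a, Nr1i2 and Nr0b2 in forestomach against 9 glandular stomach markers, and Ppara and Esrra in lung against 8 skeletal muscle markers. The 10 forestomachs with markers at 5.01 to 6.7 are the 10 with high Hnf4a, and lungs 17 and 19 stand alone at 5.61 and 5.84.

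Ppara in forestomach followed the slide on which an array lay. It was 2.95 to 4.45 on slide 1, 1.93 to 3.14 on slide 2 and 4.17 to 5.3 on slide 3, so that slides 2 and 3 did not overlap. Nr1h3 was 0.45 to 0.65, 0.16 to 0.66 and 0.66 to 1.21 on the same slides, and Rxra -0.03 to 0.35, -0.1 to 0.2 and 0.4 to 0.75 (well above background on 8 of 19 arrays), whereas Esrra showed no such step. The keratinocyte markers made the same step, at 3.3 to 3.63, 2.78 to 3.53 and 4.17 to 5, and their part in these receptor levels was not tested. Slide 3 was also the brighter one, with 40.4 to 51.7% of spots well above background against 18.9 to 34.9% on slides 1 and 2. Each slide held all 4 doses, and with slide as a block the D3 difference of Ppara was 0.6 (SE 0.23, unadjusted p = 0.0205, adjusted p = 0.248). Within slides 1, 2 and 3 it was 1.33, 0.46 and 0.12, each from 1 or 2 mice a group. Array position followed the dose step on 17 of the 19 forestomach arrays, so the effects of position and dose on Ppara cannot be told apart.

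**Figure D5:**
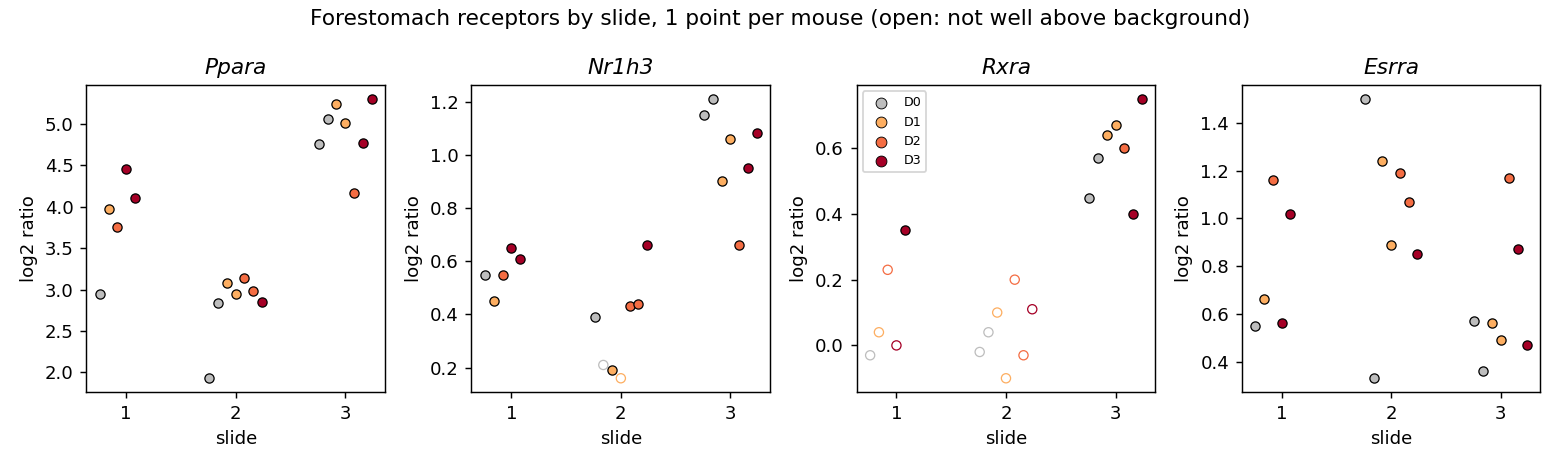
Log2 ratio to reference RNA in forestomach (vertical axis, own scale in each panel) of Ppara, Nr1h3, Rxra and Esrra by slide (horizontal axis), 1 point per mouse coloured by dose, with open points for spots not well above background. Ppara lies at 4.17 to 5.3 on slide 3 and at 1.93 to 3.14 on slide 2 at all doses.

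Differences between tissues in the D3 change were tested directly. None of the receptors passed: 0 of 10 for liver against lung (0% of all probes), 0 of 10 for liver against forestomach (0.0777%) and 0 of 9 for lung against forestomach (0.707%). The widest were 1.34 for Hnf4a between lung and forestomach (SE 0.97, adjusted p = 0.624), 1.24 for Hnf4a between liver and forestomach (SE 0.97, adjusted p = 0.752) and -0.81 for Ppara between liver and forestomach (SE 0.55, adjusted p = 0.692). The fit pooled the spread of the tissues, forestomach included. For liver against lung the SE of Hnf4a was 0.96, against 0.07 for its D3 change within each tissue. That of Ppara was 0.55, against 0.1 in liver and 0.2 in lung. The liver against lung test was therefore weak for these receptors. Nr0b2 in lung, and the Nr1i3 probe in lung and forestomach, were well above background on no array. They passed the filter only through the other tissue, so those pairs cannot judge them.

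Because several of these receptors are known to cycle over the day, each was set against Dbp, a clock output gene that swings widely, on the same array and within dose groups. Dbp itself ranged from -2.28 to 2.13 between livers. No receptor was called (0 of 9 in lung beside 0.0286% of all probes, 0 of 10 in liver beside 0.612% and 0 of 9 in forestomach beside 0%). The lowest unadjusted p was that of Nr1i2 in lung, with a slope of -0.09 per log2 unit of Dbp (SE 0.04, unadjusted p = 0.0216, adjusted p = 0.621), on spots well above background on 6 of 18 arrays. In liver the lowest were those of Nr1h3, with a slope of -0.06 per log2 unit of Dbp (SE 0.02, unadjusted p = 0.0229, adjusted p = 0.262), and Nr1i3, with -0.1 (SE 0.05, unadjusted p = 0.0466, adjusted p = 0.339). As a description of these 2 receptors, chosen for their slopes on the same arrays, over the 19 livers and as deviations from the dose group means, Pearson's r was -0.593 for Nr1h3 and -0.467 for Nr1i3, and Spearman's rho was -0.593 and -0.407. Leaving out the 2 livers farthest out in Dbp gave -0.603 and -0.328, and taking deviations within slides gave -0.375 and -0.114, which is weaker for both.

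The genes that these receptors are known to control were read from 6 lists of general knowledge, chosen with earlier results of these data known. No gene of any list was called at D1, D2 or D3 in any tissue. For the PXR and CAR list, which holds cytochrome P450 genes, transporters and conjugating enzymes, the median D3 change was 0 over 16 genes in liver, -0.05 over 11 in lung and -0.05 over 11 in forestomach, beside -0.01, -0.03 and 0 over all probes. The bile acid list gave -0.02 in liver over 13 genes, the LXR list 0.06 over 12, the PPAR alpha list -0.01 over 18 and the HNF4 alpha list 0 over 14. In the same order their D3 medians were 0.09, -0.01, -0.12 and -0.1 in lung and 0.32, 0.09, -0.08 and -0.3 in forestomach. With the glandular stomach markers as a covariate the forestomach medians were 0.47, 0.12, -0.01 and 0.11. No liver value of these lists was called. Gstm3, a glutathione transferase of the PXR and CAR list, was at -0.43 (SE 0.16, adjusted p = 0.964) and Cyp3a11 at -0.35 (SE 0.27, adjusted p = 1), Cyp7a1 was at -0.34 (SE 0.44, adjusted p = 1), and Pltp, which moves phospholipids between lipoproteins, was at 0.25 (SE 0.23, adjusted p = 1). Larger values were those of Cycs, the respiratory chain's cytochrome c on the ERR alpha list, at 1.35 in liver (SE 0.88, adjusted p = 1), and Angptl4, a lipase inhibitor on the PPAR alpha list, at -0.75 in liver (SE 0.53, adjusted p = 1) and -0.87 in lung (SE 0.41, adjusted p = 0.308). Pck1, the gluconeogenic enzyme on the HNF4 alpha list, was at 1.68 in lung (SE 0.74, adjusted p = 0.277). The fat markers had a median of 2.81 in the D3 lungs (highest 4.16) against 1.23 at D0 (highest 2.68), and their part in the Pck1 value was not tested.

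The list of ERR alpha targets, mostly genes of mitochondrial respiration and muscle energy supply, stood out in lung at D3, where 12 of 12 genes lay above D0 with a median of 0.35 and 9 had an unadjusted p of at most 0.05. None of the 12 was called, and 16.2% of all probes had such a p in that comparison. The largest were Ckmt2, a muscle creatine kinase, at 1.56 (SE 1.04, adjusted p = 0.484) and Perm1, a muscle gene, at 1.17 (SE 0.51, adjusted p = 0.274). Without the lungs of mice 17 and 19, in which the muscle markers were high, 10 of 12 lay above D0 and the median was 0.07. The D2 lungs, which do not include those mice, had 12 of 12 genes above D0, none of them called. Their median was 0.18, or 0.15 with the muscle markers as a covariate, beside 0 over all probes. In the D1 lungs 6 of 12 lay above D0, with a median of -0.01.

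The list counts between liver and lung stand beside 20.9% of all probes called higher and 24.7% called lower in liver, and differences between lists were not tested. In lung 6 HNF4 alpha targets, 8 genes of the bile acid list and 11 of the PXR and CAR list passed the filter on dim probes. In liver 14, 13 and 16 did. Genes that passed only in liver were tested for this pair because they were bright there, so the counts follow in part from that filter. In D0 mice 13 of 14 HNF4 alpha targets tested were higher in liver than in lung and 1 was lower (median 5.98), with Otc, a urea cycle enzyme, at 8.47 (SE 0.12) and the clotting factor gene F12 at 6.08 (SE 0.07). Of the bile acid list 12 of 14 were higher and 1 lower (median 4.43), among them Cyp7a1, the rate-limiting enzyme of bile acid synthesis, at 5.35 (SE 0.19) and Slc27a5, which activates bile acids for conjugation, at 8.94 (SE 0.09). The lower one was the bile acid transporter Slc10a1 at -1.17, whose 2 probes disagreed: the brighter gave that value and the other, not well above background on any lung array, read 6.41 in liver and 0.02 in lung. Of the PPAR alpha list 13 of 18 were higher and 2 lower (median 1.68).

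The PXR and CAR list was mixed, with 10 of 17 genes higher in liver and 5 lower (median 2.2). Cyp3a11, the main PXR target among the P450 genes, was 9.22 higher (SE 0.18), whereas Cyp2b10, the standard CAR target, was 2.48 lower in liver than in lung (SE 0.6, adjusted p = 0.00203) while its receptor Nr1i3 was higher in liver. Abcb1a, a drug efflux pump on the same list, was also lower in liver, by -2.51 (SE 0.17). The LXR list gave 8 of 12 higher and 4 lower (median 1.73), with the sterol exporters Abcg5 at 6.41 (SE 0.13) and Abcg1 at -3.8 (SE 0.16). The ERR alpha list gave 6 of 12 higher and 1 lower (median 0.56), with Sdhb of respiratory complex II at 2.34 (SE 0.16), while Esrra itself did not pass. For comparison, 12 of 33 other nuclear receptors tested were higher in liver than in lung and 10 were lower (median -0.26), beside a median of -0.03 over all probes. Among the 14 partners and coregulators 3 were higher in liver and 4 lower (median -0.12), and among 14 clock genes 5 were higher and 2 lower (median 0.02).

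For each receptor the genes that went up and down most nearly with it over 19 mice were listed by Pearson correlation in the tissue where it was highest. Nr1i3 in liver went with Cnnm1 (r = 0.899), Selenop (0.89) and Chchd10 (0.85), Nr1i2 with Abhd15 (0.878), and Nr1h3 with Dpcd (0.88), Slc30a10 (0.825) and Nfil3 (0.822). Ppara went with Cideb (0.835) and Lect2 (0.817), Hnf4a with Cdo1 (0.812) and Apoh (0.797), and Nr5a2 with Cul3 (0.854). Nr0b2, the most variable of the 10 in liver, had the lowest best match, Sorbs2 at 0.739. Esrra in forestomach went with Slc39a7 (0.943). These are the highest of 12603 genes in liver and 14071 in forestomach on shared arrays, so they describe these samples only.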

How the data were processed

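Per the labels and the study's methods, each tissue RNA (Cy5) was hybridised with a universal mouse reference RNA (Cy3) on 2-colour Agilent mouse arrays. Spots were quantified with Feature Extraction 10.7.3.1. The deposited value table holds the authors' log2 ratio of sample to reference. Its normalization was checked against loess within arrays on the deposited median intensity values, without background subtraction, and the correlation was 0.977 to 0.998 on every array. The column medians of the deposited table were -0.0456 to -0.0201.

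Probes were named by matching RefSeq accessions to symbols (26413 of 55681 probes, 47.4%), and 3671 control spots were left out. A probe was tested where Cy5 was well above background on at least 3 arrays of the tissue (between tissues, of either tissue, with the gene's probe that was brightest over all arrays), and left out of a fit where a spot in it was not uniform. Each comparison was fitted with limma 3.58.1 in R 4.3.3 (lmFit and eBayes, two-sided), with Benjamini-Hochberg adjustment over all probes tested. The main fits used 1 spread per probe for all their arrays, which between tissues took in all 3 tissues. The study's methods compared doses by MAANOVA, for which limma was used here. A DEG had an FDR P of at most 0.05 and a fold change of at least 1.5. The fit was tested on simulated data. The number of arrays limits the precision. Each array is 1 animal.

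All 10 members were named in every tissue, with single dose effects for the 3 of each tissue that differed most at D3 and a few others for their interval; list genes named at D3 were among the 2 largest of their list, and those between tissues are examples of called genes. The members and lists were chosen with earlier results of these data known. Alternatives were own loess, median centring, normexp (offset 50), other filters and probes, marker, slide, position and Dbp terms, the mouse as a block, and leaving out each mouse. The 3 tissues came from the same animals, and same-numbered arrays had deviations that correlated at 0.0583 to 0.27 for liver with lung, -0.167 to 0.246 for liver with forestomach and -0.0657 to 0.0887 for lung with forestomach.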

Additional observations from a re-analysis of the deposited data

Results flagged for a closer look

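Within dose groups of 4 or 5 mice, 10 of the 103 groups of receptor values held 1 mouse far from the others by Dixon's criterion, where about 5.15 would be expected by chance. In forestomach, mouse 19 stood apart at D3 with Nr1i2 at 2.06 (the others 0.04 to 0.16) and Hnf4a at 4.64 (0.20 to 1.05), and mouse 12 at D2 with Nr1h4 at 1.03 (-0.06 to 0.02) and Nr0b2 at 1.22 (-0.2 to 0). Both are among the 3 forestomachs with the highest glandular stomach and pancreatic acinar markers, as is mouse 2, whose Nr0b2 at D0 was 1.15 (-0.16 to 0.18). Mouse 20 at D3 had Nr5a2 at 0.66 (-0.07 to 0.13) and mouse 3 at D0 had Esrra at 1.5 (0.33 to 0.57). In lung, Nr1h4 was -1.45 in mouse 9 at D1 (-1.9 to -1.78), Esrra was -0.38 in mouse 5 at D0 (-0.66 to -0.58), and Hnf4a was 0.06 in mouse 4 at D0 (-0.16 to -0.13), on a spot not well above background. No liver group held such a value.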

How the results depend on the processing

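The absence of called receptors at any dose held under every alternative that was run. Between tissues, centring each array on its median gave 2 receptors in place of 4 for lung against forestomach, and 6 in place of 0 for the slope on Dbp in forestomach, where 88.7% of all probes were then called. Over all probes it moved the share of calls that were higher in the first tissue from 45.9 to 12.9% for liver against lung, from 46.7 to 81.6% for liver against forestomach and from 51.7 to 95.4% for lung against forestomach. The same centring turned Esrra to -0.58, 0.50 and 1.08 for these pairs and, for lung against forestomach, Nr5a2 to -0.09, Ppara to 0.34 and Rxra to 0.24. It ended the calls of Nr1h3 (0.05) and Rxra (0.44) for liver against lung, Hnf4a (1.49) and Esrra for liver against forestomach and Nr1h4 (-0.27) and Esrra for lung against forestomach.

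Other signs turned only for values that were not called: Nr0b2 at D3 in liver was 0.03 with normexp and loess, Nr5a2 for lung against forestomach was -0.05 with the mean of all probes, Ppara and Esrra at D3 in lung were -0.05 and -0.02 with the muscle covariate and -0.04 and -0.02 without mice 17 and 19, and for lung against forestomach Nr1i2 and Rxra were 0.38 and 0.15 without the forestomachs of mice 2, 3 and 5, and Nr1i2 was 0.14 in the D1 mice. With each mouse left out in turn, lung against forestomach ran from -0.24 to 0.08 for Nr1i2, from -0.04 to 0.13 for Nr5a2 and from -0.15 to 0.08 for Rxra, and Hnf4a for liver against forestomach from 1.22 to 2.35. Hnf4a for liver against forestomach also lost its call with slide as a random block (2.06), with only these tissues in the fit (adjusted p = 0.0971) and in the D2 mice (0.58), and for lung against forestomach in the D1 (-1.59) and D3 mice (-1.3), where Ppara was called (-1.5 and -1.35). The cause was not tested.

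With the mouse as a replicate block the counts were 9, 10 and 4 between tissues and 0 for each difference in D3 effect, and no call changed. The alternatives with mice 17 and 19 or the forestomachs of mice 2, 3 and 5 left out, the D1 to D3 mice and the random slide block were chosen after seeing the data. Depth of signal limits Nr0b2 in lung and Nr1i3 in lung and forestomach, and the wide intervals limit what forestomach can show for Hnf4a and Ppara.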
